A study of Rattus norvegicus with 30 samples.

Results

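The markers of resident macrophages and other leukocytes followed here in rat heart, at 3 ages and in both sexes, were 10 genes: Ptprc, Cd68, Cd163, Mrc1, Csf1r, Cd14, Lyz2, Cd3e, Cd4 and Tyrobp. They are 10 of the 15444 gene symbols to which probes of the array could be assigned. Members were every row of the 3 normalized tables that carried one of these names, and each table held 15 such rows, which were traced back to 20 probes in the scanner files. The hearts came from untreated control F344 rats, an inbred strain, with 1 array per rat and 5 rats of each sex killed at 8 weeks (young), at 21 weeks (adult) or at 78 weeks (old). Whole hearts were ground, so each value is an average over cardiomyocytes, vessels, fibroblasts and blood. In such bulk tissue, fewer cells of a type and less RNA per cell cannot be told apart.

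The heart holds a network of macrophages that is partly laid down before birth and partly replaced from blood monocytes, and that clears dying cells and debris around the cardiomyocytes. The members cover several roles in these cells. Ptprc (CD45) is the tyrosine phosphatase carried by all nucleated blood cells. Cd163, which takes up haemoglobin bound to haptoglobin, and Mrc1 (CD206), the mannose receptor, are endocytic receptors typical of resident tissue macrophages. Cd68 is a glycoprotein of macrophage lysosomes and Lyz2 is the lysozyme that macrophages secrete. Csf1r is the receptor through which colony stimulating factor keeps macrophages alive, Tyrobp (DAP12) is an adaptor that passes on signals from receptors such as Trem2, and Cd14 presents bacterial lipopolysaccharide to Tlr4. Cd3e is a chain of the T cell receptor complex, and Cd4 is the coreceptor of helper T cells that rat macrophages also carry.

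Of the 20 probes, 7 had genomic footprints longer than their 60 bases, so they read across exon boundaries of the spliced mRNA. The probes of this kind on which the main results below rest are shown 5′ to 3′ in lower case, because the measured level of a gene is that of these bases. The Mrc1 sequence is shown as well, but is that of a second probe, not of the one on which the main Mrc1 values rest.
Cd163: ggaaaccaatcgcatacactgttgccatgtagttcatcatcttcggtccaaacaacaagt
Lyz2: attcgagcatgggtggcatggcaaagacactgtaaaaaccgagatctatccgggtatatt
Csf1r: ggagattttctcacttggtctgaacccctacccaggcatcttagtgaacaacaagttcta
Cd4: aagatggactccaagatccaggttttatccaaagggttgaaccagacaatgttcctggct
Ptprc: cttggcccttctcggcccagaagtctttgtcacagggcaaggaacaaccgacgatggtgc
Mrc1: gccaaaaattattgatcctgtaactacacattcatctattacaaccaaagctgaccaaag
In the rn3 coordinates of the scanner files they lay at chr4:160652157-160652858 on the plus strand for Cd163, at chr7:56629170-56629966 on the minus strand for Lyz2 and at chr18:57177463-57178164 on the plus strand for Csf1r. The Cd4 probe lay at chr4:161234779-161235378 on the minus strand, the Ptprc probe at chr13:51316811-51371847 on the minus strand and the Mrc1 probe at chr17:88499989-88502596 on the plus strand.

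Several names joined probes that measured different things. For each gene 1 probe was followed, the one well above background on the most arrays. It was at chr10:56495385-56495444 on the minus strand for Cd68, at chr17:88503236-88503295 on the plus strand for Mrc1, at chr1:85447221-85447280 on the plus strand for Tyrobp, at chr18:29401636-29401695 on the minus strand for Cd14 and at chr8:47959079-47959138 on the minus strand for Cd3e. The first 2 of the 3 Cd68 rows came from probes on the opposite strand, 2 and 448 bases from that of the Cd68 mRNA, and the first of the 2 Tyrobp rows came from an opposite-strand probe 9 bases away. The second Csf1r row belonged to a probe 43714 bases upstream that was not well above background on any of the 30 arrays. The first Lyz2 row lay 13345 bases from the lysozyme probe on the same strand. The single rows of Ptprc, Cd163, Mrc1 and Cd14 were geometric means of 3, 2, 2 and 2 probes.

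Upstream of the genes, the letters GAGGAA, the core of the motif bound by the myeloid factor PU.1, were searched on both strands in the 250 bases before each RefSeq gene start (GRCr8). They stood in 7 of the 8 members with an entry, all but Cd163, and in 23.3% of all 33469 promoters. No entry was given for Cd4 and Tyrobp. The last 100 bases before the start are shown for Lyz2 and Mrc1, whose levels moved in opposite ways between 8 and 21 weeks, with the motif, or its reverse complement TTCCTC, in capitals.
Lyz2, chr7:54798012-54798111, minus strand: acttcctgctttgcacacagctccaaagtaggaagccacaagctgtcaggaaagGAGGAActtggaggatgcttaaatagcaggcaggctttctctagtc
Mrc1, chr17:82157625-82157724, plus strand: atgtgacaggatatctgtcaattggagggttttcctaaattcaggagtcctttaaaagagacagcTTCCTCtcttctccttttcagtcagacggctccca
A match describes these letters only and says nothing of binding.

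Arrays were read in 1 colour (Cy3). Between 17223 and 24342 spots per array were well above background, and the 75th percentile of the processed signal ran from 36.9 to 157.2, the lowest being male replicate 2 of 21 weeks. The heart label held in every group, where the mean log2 signal of 9 cardiomyocyte genes lay between 8.21 and 8.68 above the 75th percentile of the array. The Y-linked gene Eif2s3y was at the level of the other sex on the 78-week arrays labelled female replicate 2 (1.49, against 0.0106 to 0.0123 in the other old females) and male replicate 3 (0.0121, against 1.09 to 1.55 in the other old males; normalized values of the authors' table). Key results at 78 weeks are therefore also given with both of them left out. Per the study's methods, rats of each age were handled in a batch of their own, with both sexes together, so in every age difference below age and handling batch cannot be told apart, and the study itself did not test age. All 21-week arrays lay on 3 slides of their own, so that for them slide and age cannot be told apart, whereas 1 slide held 2 rats of 8 and 2 of 78 weeks. All 8-week arrays were scanned on day 1 and all 21-week arrays on day 2, while those of 78 weeks were split between both days. Scan day thus also changed with age between 8 and 21 weeks.

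In what follows a level is log2 of the processed signal minus the array's 75th percentile, and levels of different probes are not set against each other. The 6 members well above background on all 30 arrays were Cd68, Mrc1, Csf1r, Cd14, Lyz2 and Tyrobp. Cd163 was on all arrays but 2 of 21-week males and Ptprc on 24 of 30. Cd4 was so on 10 arrays and Cd3e on 1.

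**Figure D1:**
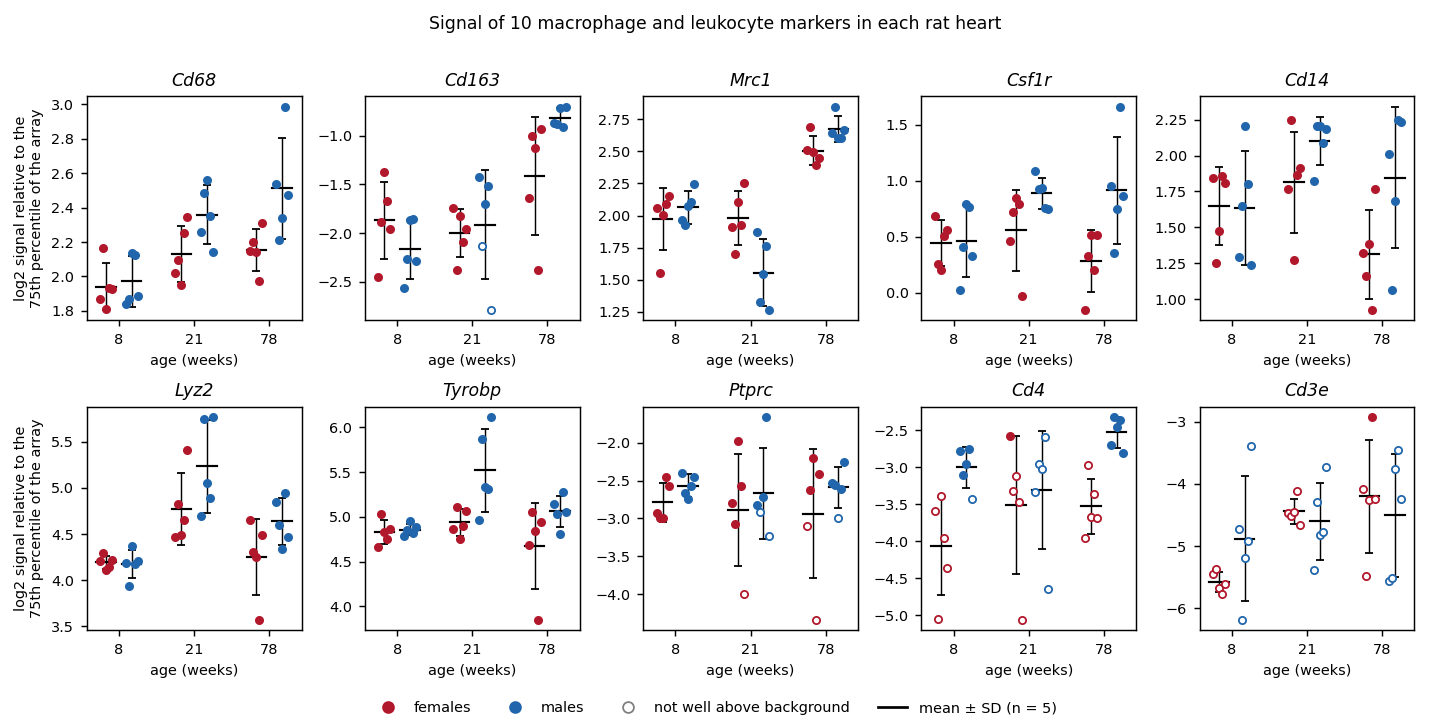
Log2 signal relative to the array's 75th percentile (y axis, own scale per gene) of the 10 markers against age in weeks, females red and males blue, 1 point per rat, with the mean and SD of 5 rats in black and open points where the probe was not well above background. Mrc1 and Cd163 sit highest at 78 weeks, Lyz2 and Tyrobp at 21 weeks in males, and Cd4 is filled in 5 of 5 old males and in 0 of 5 old females.

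The receptors Cd163 and Mrc1 were higher in old hearts than in either younger group, and the lysosomal marker Cd68 was higher in old than in young hearts. Lyz2 was highest in adult hearts, with Tyrobp. Between 8 and 78 weeks, limma called 4 of 10 members at an adjusted p under 0.05, all higher at 78 weeks, where 10.9% of all probes were called and 5.66% were called higher. They were Cd163, Mrc1, Cd68 and Cd3e, the last of which was not well above background in 9 of 10 rats of 78 weeks and gets no fold. Members called lower at 78 weeks numbered 0, against 5.21% of all probes. Between 21 and 78 weeks 5 of 10 members passed, against 33% of all probes: 2 were higher at 78 weeks (Cd163, Mrc1; 13.6% of all probes) and 3 lower (Cd14, Lyz2, Tyrobp; 19.4% of all probes). Between 8 and 21 weeks 5 of 10 passed, which is no more than the 57.3% of all probes called in that comparison. They were Cd68, Lyz2, Tyrobp and Cd3e, higher at 21 weeks (42.1% of all probes), and Mrc1, lower (15.1% of all probes). In females alone 0, 1 and 1 members passed for 21 minus 8, 78 minus 21 and 78 minus 8 weeks, against 7.52%, 9.52% and 2.49% of all probes, and in males alone 4, 3 and 3, against 53.3%, 34.1% and 3.93%. No member passed the test of the difference between the sexes in these changes (smallest adjusted p = 0.293, 0.253 and 1), where 0.00244%, 0.00244% and 0% of all probes did. The median difference of all probes was itself 0.29 for 21 minus 8 weeks, -0.19 for 78 minus 21 weeks and 0.12 for 78 minus 8 weeks. After quantile normalization these medians were 0.05, -0.05 and 0.00, and all of the calls above stood except those of Cd3e, of Tyrobp in both comparisons and of Cd14.

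**Figure D2:**
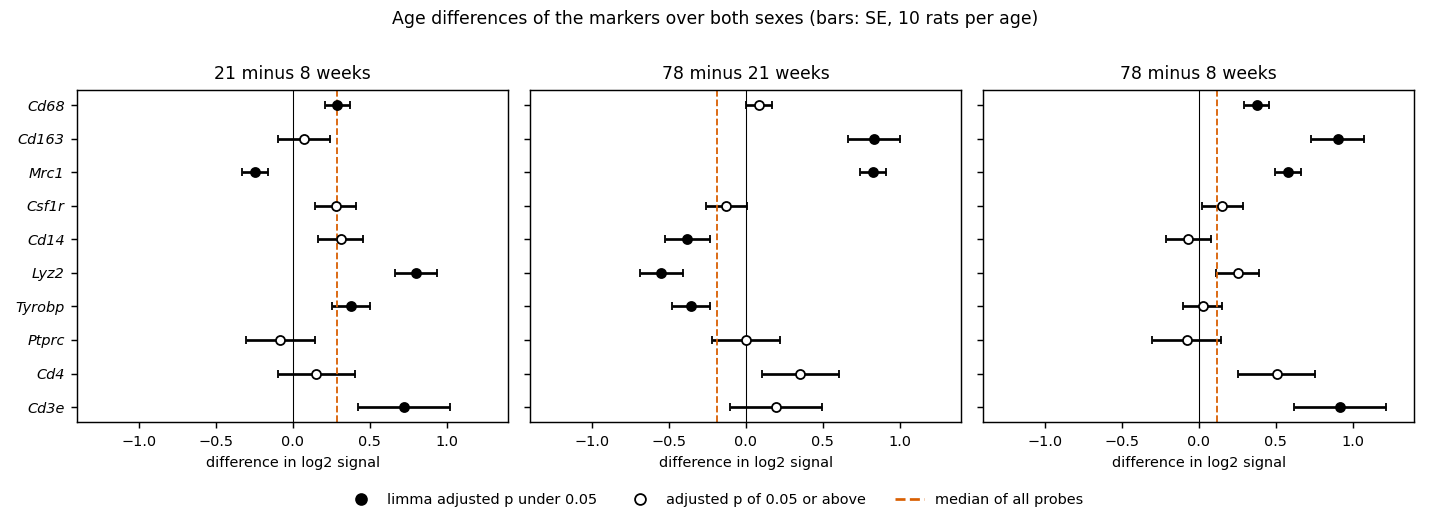
Difference in log2 signal (x axis) of the 10 markers between ages over both sexes, with SE bars from limma, filled points at an adjusted p under 0.05 and the median of all probes as a dashed line. Cd163 and Mrc1 lie to the right of that line in both comparisons with 78 weeks, Lyz2 and Tyrobp to the left of zero for 78 minus 21 weeks.

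Cd163 was the member with the largest difference between young and old hearts among those well above background there. In young females the 5 rats measured -2.45, -1.88, -1.37, -1.67 and -1.96, and in old females -1.64, -1.01, -1.12, -2.38 and -0.93. The ranges overlapped, since old female 4 lay below 4 of the 5 young females. Young males measured -2.56, -2.27, -1.86, -1.86 and -2.29, and old males -0.87, -0.88, -0.71, -0.91 and -0.70. Every old male was above every young and every adult male, the adult males measuring -1.42, -2.13, -1.71, -1.52 and -2.79 and the adult females -1.74, -2.37, -1.83, -2.09 and -1.96. Over both sexes Cd163 was 1.87-fold higher at 78 than at 8 weeks (difference 0.90, SE 0.17, limma adjusted p = 0.000599) and 1.78-fold higher than at 21 weeks (0.83, SE 0.17, adjusted p = 0.000298). In the authors' tables, scaled separately by age, the difference from 8 weeks was 0.60 (adjusted p = 0.0691), and under normexp background correction that from 21 weeks was 0.18 (adjusted p = 0.68). In males alone the difference from 8 weeks was 1.35 (adjusted p = 0.0012) and in females 0.45 (adjusted p = 0.476). The difference between these, -0.90 with SE 0.37, did not pass (adjusted p = 1). Groups of 5 that did not overlap, as here in males, were found for 8.74% of all probes between 8 and 78 weeks and for 16.2% between 21 and 78 weeks. The second Cd163 probe, well above background on 12 arrays, differed by 1.02 between 21 and 78 weeks (adjusted p = 0.0076) and by 0.51 between 8 and 78 weeks (adjusted p = 0.23).

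On the probe followed, Mrc1 changed in both sexes. Its level was 2.06, 1.55, 2.01, 2.09 and 2.15 in young females and 1.97, 1.93, 2.07, 2.11 and 2.24 in young males. In adult females it was 1.91, 1.70, 2.10, 1.93 and 2.25, close to the young ones, while adult males had 1.87, 1.33, 1.55, 1.76 and 1.27, all below every young male, as 21.3% of all probes also did not overlap between these males. In old females it was 2.51, 2.69, 2.49, 2.39 and 2.45, and in old males 2.64, 2.85, 2.61, 2.61 and 2.67. No old rat overlapped any younger rat of its own sex (two-sided exact permutation p = 0.00794 in each of these 4 comparisons, the smallest that 5 against 5 allows), which in females was the case for 6.03% of all probes between 8 and 78 weeks and 8.58% between 21 and 78 weeks. Mrc1 was 1.49-fold higher at 78 than at 8 weeks (0.58, SE 0.09, limma adjusted p = 2.71e-05) and 1.77-fold higher than at 21 weeks (0.83, SE 0.08, adjusted p = 2.61e-08). The difference from 8 weeks was 0.32 in the authors' tables (adjusted p = 0.0676) and 0.28 under normexp (adjusted p = 0.185). At 21 weeks it was lower than at 8 weeks by -0.25 (SE 0.08, adjusted p = 0.0154), with -0.50 in males (adjusted p = 0.00178) and 0.01 in females (adjusted p = 0.964). The interaction between sex and these ages, 0.52 with SE 0.18, had an adjusted p = 0.293. The second Mrc1 probe, whose sequence is given above, differed by -0.53 for 21 minus 8 weeks (adjusted p = 0.013), 0.79 for 78 minus 21 weeks (adjusted p = 0.00071) and 0.27 for 78 minus 8 weeks (adjusted p = 0.3). In females alone its last 2 differences were 0.46 (limma adjusted p = 0.335) and 0.04 (adjusted p = 0.95). In males alone they were 1.13 (adjusted p = 0.00124) and 0.49 (adjusted p = 0.298).

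Cd68 differed less. Young females had 1.87, 2.16, 1.81, 1.93 and 1.93 and young males 1.84, 1.87, 2.14, 2.12 and 1.89. In adult females the values were 2.02, 2.10, 1.95, 2.25 and 2.34 and in adult males 2.26, 2.48, 2.56, 2.35 and 2.14. Old females had 2.15, 2.20, 2.14, 1.97 and 2.31 and old males 2.54, 2.21, 2.34, 2.99 and 2.47. Adult and old males all lay above every young male, by a narrow margin, while females of the 3 ages overlapped. Males did not overlap for 21.3% of all probes between 8 and 21 weeks and for 8.74% between 8 and 78 weeks. Cd68 was 1.30-fold higher at 78 than at 8 weeks (0.37, SE 0.08, limma adjusted p = 0.00295) and 1.22-fold higher at 21 than at 8 weeks (0.29, SE 0.08, adjusted p = 0.00447), the latter equal to the shift of the median probe. Normexp gave 0.11 for 78 minus 8 weeks (adjusted p = 0.565) and turned the sign for 21 minus 8 weeks, to -0.06 (adjusted p = 0.792). Between 21 and 78 weeks the difference was 0.09 (adjusted p = 0.413).

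Within the slide that carried rats of 8 and 78 weeks, the old rat of a sex minus the young one was 0.32 in females and 1.42 in males for Cd163, 0.35 and 0.40 for Mrc1, and 0.22 and 0.65 for Cd68. The median over all probes on that slide was 0.04. The mean of both differences was positive for 7 of the 10 members, but in the females Csf1r (-0.71), Ptprc (-0.52), Cd14 (-0.49) and Tyrobp (-0.18) were lower in the old rat, as were the second probes of Cd163 (-0.93) and Mrc1 (-0.55). They rest on 4 rats, and with slide as a fixed block none of the members passed (smallest of these 3 adjusted p = 0.412, 195 probes called in all). Leaving out the 2 old rats with an unmatched Eif2s3y level, the differences between 8 and 78 weeks were 0.83 for Cd163 (limma adjusted p = 0.00422), 0.56 for Mrc1 (adjusted p = 0.000204) and 0.39 for Cd68 (adjusted p = 0.00563).

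Lyz2 and Tyrobp were highest in adult hearts. Lyz2 measured 4.21, 4.29, 4.11, 4.14 and 4.21 in young females and 4.18, 3.94, 4.37, 4.18 and 4.21 in young males, a spread of 0.07 and 0.15 (SD). Adult females had 4.46, 4.83, 4.49, 4.65 and 5.41 and adult males 4.70, 5.75, 5.05, 4.89 and 5.77, so that every adult rat was above every young rat of its sex, as groups that did not overlap were found for 12.8% of all probes in females and 21.3% in males. Old females had 4.65, 4.30, 4.25, 3.57 and 4.49 and old males 4.85, 4.59, 4.33, 4.94 and 4.47, which overlapped both other ages in each sex. Lyz2 was 1.74-fold higher at 21 than at 8 weeks (0.80, SE 0.14, limma adjusted p = 5.55e-05) and 1.46-fold lower at 78 than at 21 weeks (-0.55, SE 0.14, adjusted p = 0.00272). Its difference between 8 and 78 weeks was 0.25 (adjusted p = 0.217). Under normexp the first 2 differences were 0.37 (adjusted p = 0.198) and -0.43 (adjusted p = 0.649). The Lyz2 row 13345 bases away differed by 0.67 for 21 minus 8 weeks (adjusted p = 0.00746), and for 78 minus 21 weeks its difference was -0.18 (adjusted p = 0.485).

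For Tyrobp the adult males stood out, with 4.97, 5.87, 5.34, 5.31 and 6.12, against 4.86, 5.11, 4.75, 4.90 and 5.07 in adult females. Young hearts lay between 4.67 and 5.03 in both sexes and old hearts between 3.85 and 5.28. Tyrobp was 1.30-fold higher at 21 than at 8 weeks (0.38, SE 0.12, limma adjusted p = 0.011), with 0.66 in males (adjusted p = 0.0039) and 0.10 in females (adjusted p = 0.737), and 1.28-fold lower at 78 than at 21 weeks (-0.36, SE 0.12, adjusted p = 0.0264). The interaction for 21 minus 8 weeks was -0.55 (SE 0.27, adjusted p = 0.301). The highest Tyrobp and Lyz2 values of adult males were those of replicates 2 and 5, whose arrays had 75th percentiles of 36.9 and 66.0, the lowest and the median of that group. The part of array brightness in these values was not tested beyond quantile normalization and scaling to the 75th percentile of bright probes. Member counts under these stand in the last section. After quantile normalization the Tyrobp difference between 8 and 21 weeks was 0.13 (limma adjusted p = 0.358) and that of Lyz2 0.57 (adjusted p = 0.000288). Of 10 alternatives other than leaving out single rats, the Tyrobp result was not the same in 4 and that of Lyz2 in 1. Normexp turned the sign of the Tyrobp difference, to -0.04 (adjusted p = 0.92). The opposite-strand Tyrobp probe also differed between 8 and 21 weeks, by 0.65 (adjusted p = 0.00732), and between 8 and 78 weeks, by 0.66 (adjusted p = 0.0292), whereas for 78 minus 21 weeks it had 0.02 (adjusted p = 0.951), against -0.36 for the probe followed.

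Cd14 and Csf1r showed smaller differences. Cd14 ranged from 1.25 to 1.86 in young females, with a median of 1.81, and from 1.24 to 2.21 in young males, with a median of 1.64. Adult females had 1.77, 2.24, 1.27, 1.86 and 1.91 and adult males 1.82, 2.21, 2.21, 2.09 and 2.19. In old females it was 1.32, 1.16, 1.39, 0.92 and 1.77 and in old males 2.01, 1.06, 1.68, 2.24 and 2.24, overlapping the adult rats of each sex. The difference between 21 and 78 weeks was -0.38 (SE 0.14, limma adjusted p = 0.044), and it no longer passed when any of 14 single rats was left out. The second Cd14 probe differed by -0.51 (adjusted p = 0.015). None of the age differences of Csf1r passed (smallest adjusted p = 0.0621, in males between 8 and 21 weeks).

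Ptprc, the marker of all leukocytes, was dim. Group means of the probe followed lay between -2.94 ± 0.85 for the old females and -2.57 ± 0.15 for the young males (SD, n = 5 each), and the age differences over both sexes were -0.08, 0.00 and -0.08, with the smallest adjusted p = 0.769. Its 3 probes disagreed. One nearer the 3′ end of the gene, well above background on 21 arrays, differed by 0.66 between 21 and 78 weeks (limma adjusted p = 0.015), and the third was well above background on 4 arrays. The T cell marker Cd3e was well above background only in old female 4, at -2.92. The other CD3 chains Cd3d and Cd3g, named here after their values were seen, were well above background on all 30 arrays and were higher at 21 than at 8 weeks by 0.80 (SE 0.21, limma adjusted p = 0.00231) and 0.83 (SE 0.23, adjusted p = 0.00328). In that comparison 42.1% of all probes were called higher, with a median of 0.29. So were 9 of 12 T cell genes (median 0.52) and 7 of 9 cardiomyocyte genes (median 0.58). For 78 minus 21 weeks 0 T cell genes were called higher and 3 lower (median -0.31), where 13.6% of all probes were higher and 19.4% lower.

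The sexes were compared within each age, the comparison that the shared handling of the sexes allows. At every age, though, females lay at positions 2 or 4 of a slide and males at positions 1 or 3. Sex and position on the slide therefore cannot be told apart. limma called none of the members at any age, where 0.0634% of all probes passed at 8 weeks, 0.0317% at 21 weeks and 0% at 78 weeks. The smallest adjusted p-values among members were 0.737, 0.362 and 0.669. At an unadjusted p under 0.05, limma gave 1 member at 8 weeks (Cd4; 4.33% of all probes), 2 at 21 weeks (Mrc1, Tyrobp; 13.5%) and 4 at 78 weeks (Cd68, Cd163, Csf1r, Cd4; 4.62%). The methods' t-test gave 1, 2 and 4, with Mrc1 in place of Cd163 at 78 weeks, and 0 after Benjamini-Hochberg adjustment.

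**Figure D3:**
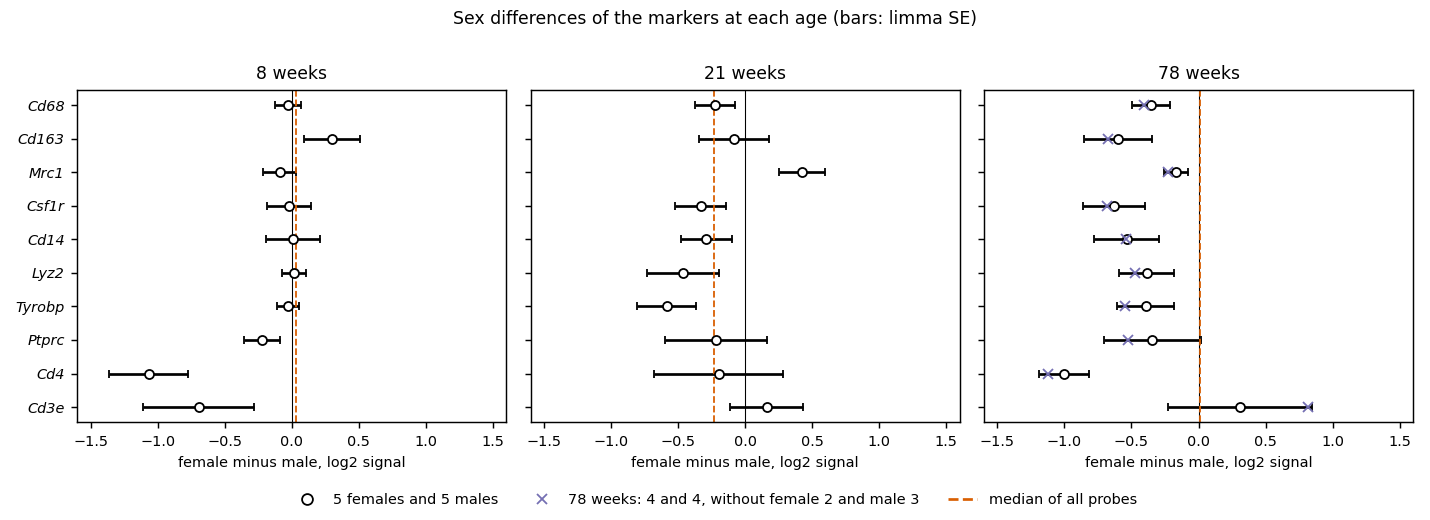
Female minus male difference in log2 signal (x axis) of the 10 markers at each age with limma SE bars, crosses for 78 weeks without female replicate 2 and male replicate 3, and the median of all probes as a dashed line. At 78 weeks 9 of 10 markers lie left of zero with and without those arrays, while the dashed line is at 0.01.

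In old hearts 9 of the 10 members had a lower mean in females, all but Cd3e, with a median difference of -0.39, whereas 48.1% of all probes had a lower mean in females and their median difference was 0.01. Leaving out the 2 rats with an unmatched Eif2s3y level gave 9 of 10 again, with a median of -0.53. At 8 weeks 7 of 10 were lower in females with a median of -0.03, where 43% of all probes were, and at 21 weeks 8 of 10 with a median of -0.22, equal to the -0.23 of all probes, of which 70.2% were lower in females. The values of 1 array, old female 4, were the lowest of their group for Lyz2, Tyrobp, Cd163, Ptprc, Cd68, Cd14 and Mrc1. Without it 9 of 10 members were still lower in females, with a median of -0.26.

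As labelled, Cd163 and Cd4 did not overlap between old females and old males, which was the case for 0.702% of all probes. Grouped by Eif2s3y level instead of label, both genes would overlap. Old female 2 would then join the males, at -1.01 for Cd163 and -2.97 for Cd4. Old male 3 would join the females, at -0.71 and -2.45. At 8 and 21 weeks 0 members were free of overlap, against 1.08% and 3.34% of all probes. For Cd163 the old females averaged -1.42 ± 0.61 and the old males -0.82 ± 0.10 (SD, n = 5 each), a difference of -0.60 (two-sided exact permutation p = 0.00794, limma adjusted p = 0.935). It was -0.68 when both rats with an unmatched Eif2s3y level were left out and -0.36 without old female 4. Over 11 alternatives other than leaving out single rats it ran from -0.68 to -0.07. The second Cd163 probe differed by -0.70 between the old sexes, which overlapped (exact permutation p = 0.317). In young rats the sign was opposite, 0.30 (exact permutation p = 0.222), and in adult rats the difference was -0.08 (exact permutation p = 0.778).

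Cd4 measured -3.95, -2.97, -3.67, -3.37 and -3.69 in old females, well above background on 0 of 5 arrays, and -2.69, -2.32, -2.45, -2.36 and -2.80 in old males, well above background on all 5. Each female value was raised to the lowest signal of any probe well above background on its array, where it lay below that. Against these values Cd4 was 1.70-fold higher in old males. This is not a firm lower bound, since the -2.97 of old female 2 was itself not well above background. The measured values gave an exact permutation p = 0.00794 and a limma adjusted p = 0.669. Young females had -3.59, -5.05, -3.39, -3.95 and -4.36, again with 0 arrays well above background, and young males -2.77, -3.10, -2.95, -2.76 and -3.42, with 4. The same comparison there gave a level 1.48-fold higher in males, with the same limit. The measured values gave an exact permutation p = 0.0159 and a limma adjusted p = 0.737. Among adult rats 1 female and 0 males had Cd4 well above background, and the sexes overlapped widely, so no fold is given. Under normexp background correction the difference at 78 weeks was 0.03, with the opposite sign.

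The receptor Csf1r averaged, for females and then males, 0.44 ± 0.21 and 0.46 ± 0.32 in young, 0.56 ± 0.36 and 0.89 ± 0.14 in adult, and 0.28 ± 0.28 and 0.92 ± 0.48 in old rats (SD, n = 5 each). The old females had -0.15, 0.33, 0.52, 0.21 and 0.52 and the old males 0.96, 0.35, 0.74, 1.66 and 0.86, so 3 old females lay below every old male (difference -0.63, exact permutation p = 0.0238, limma adjusted p = 0.935). For Cd68 4 of 5 old females were below every old male (-0.36, exact permutation p = 0.0159, adjusted p = 0.935). Mrc1 was lower in old females by -0.17 (exact permutation p = 0.0397, adjusted p = 0.935) but higher in adult females by 0.42 (exact permutation p = 0.0397, adjusted p = 0.362). Tyrobp was lower in adult females by -0.58 (exact permutation p = 0.0238, adjusted p = 0.362). These exact tests cover 30 comparisons of members, of which 8 gave p under 0.05, namely 1, 2 and 5 at 8, 21 and 78 weeks. The share of all probes under 0.05 in exact tests was not counted. In limma the shares at an unadjusted p under 0.05 were 4.33%, 13.5% and 4.62%. Members also varied together, so the 30 comparisons are not independent. With both rats of unmatched Eif2s3y level left out, 4 rats remained per sex at 78 weeks and the smallest exact p they allow is 0.0286. The differences were then -0.69 for Csf1r (exact permutation p = 0.0857), -0.41 for Cd68 (exact permutation p = 0.0571), -0.23 for Mrc1, -0.55 for Tyrobp and -1.13 for Cd4, the last 3 with no overlap (exact permutation p = 0.0286 each). With Cd163 (exact permutation p = 0.0286), 4 members did not overlap. The share of all probes without overlap among these fewer rats was not counted.

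At 78 weeks the same-numbered female and male lay side by side on a slide and deviated together. Taken as 5 pairs, Cd163, Cd4, Csf1r, Cd68 and Mrc1 were lower in the female of all 5, which was the case for 3.2% of all probes. The differences within pairs 1 to 5 were -0.13, -0.16, -0.11, -0.21 and -0.22 for Mrc1 and -0.76, -0.12, -0.41, -1.47 and -0.23 for Cd163. For each of these 5 genes the two-sided exact sign-flip permutation p was 0.0625, the smallest that 5 pairs allow, so the paired design cannot pass 0.05. Pairs 2 and 3 each hold 1 of the rats whose Eif2s3y level did not match. By that level both rats of pair 2 were male-like (1.49 and 1.55) and both of pair 3 female-like (0.0109 and 0.0121). These 2 pairs may thus not compare the sexes, and their signs are counted by label only. With the replicate number as a block limma called no member (adjusted p = 0.834 for Cd163 and 0.679 for Cd4).

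Other genes of these cell types were counted from lists. Of 27 further macrophage and monocyte genes on the array, of which 15 were well above background on all 30 arrays, 12 were higher and 0 lower at 78 than at 8 weeks, with a median difference of 0.36 against 0.12 for all probes, of which 5.66% were called higher. Those with the largest differences were Gpnmb, a membrane glycoprotein of lipid-laden macrophages (1.29, SE 0.11, limma adjusted p = 1.4e-09), Trem2, the receptor that signals through Tyrobp (0.88, SE 0.13, adjusted p = 2.73e-05), and the Fc receptors Fcgr2b (0.69, adjusted p = 0.000488) and Fcgr3a (0.68, adjusted p = 0.00511). These counts are over both sexes. In females alone 2 of the 27 genes were higher at 78 than at 8 weeks, with a median of 0.14 (all probes 0.11, 2.49% called). In males alone 9 were higher, with a median of 0.52 (all probes 0.11, 3.93% called). The difference between the sexes in this change passed for 0 of them. Over both sexes, for 21 minus 8 weeks 17 were higher and 1 lower, with a median of 0.37, where 42.1% of all probes were higher and 15.1% lower with a median of 0.29. For 78 minus 21 weeks 4 were higher and 3 lower, with a median of -0.03, where 13.6% of all probes were higher and 19.4% lower with a median of -0.19. Trem2 was already higher at 21 than at 8 weeks by 0.84 (adjusted p = 1.11e-05) and differed by 0.04 between 21 and 78 weeks (adjusted p = 0.835).

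Of 9 partners of the members on the array, 1 was higher and 1 lower at 78 than at 8 weeks. Csf1, the ligand of Csf1r, was higher by 0.38 (SE 0.08, limma adjusted p = 0.00188) and the kinase Lyn was lower by -0.30 (SE 0.06, adjusted p = 0.00209). Other listed partners are named for their link to the members rather than for their values. Haptoglobin (Hp), whose complex with haemoglobin Cd163 takes up, had a difference of 0.31 (adjusted p = 0.589), and Tlr4, the receptor served by Cd14, had -0.03 (adjusted p = 0.838).

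Of 12 T cell genes 2 were higher at 78 than at 8 weeks, Cd5 (0.95, limma adjusted p = 0.0466, well above background on 2 arrays) and Cd6 (0.91, SE 0.16, adjusted p = 0.000261). Of 8 NK cell genes 1 was lower, Klrb1a (-0.57, adjusted p = 0.0227), of 6 B cell genes 1 was lower, Cd79b (-1.33, adjusted p = 0.00013, well above background on 3 arrays), and of 10 granulocyte and mast cell genes 1 was lower, the mast cell protease Cpa3 (-1.31, adjusted p = 0.00749), and 1 higher, Tpsb2 (0.58, adjusted p = 0.0448). The NK cell list had a median of 0.21 with 7 of 8 differences positive, and the granulocyte and mast cell list 0.29 with 9 of 10. For the NK cell list this differed by sex, with 1 of 8 positive in females (median -0.24) and 7 of 8 in males (median 0.61). The B cell list had -0.15 with 2 of 6 positive, where the median of all probes was 0.12. Of 6 blood cell and platelet genes the platelet chemokine Pf4 was higher (0.63, limma adjusted p = 0.000995). Among genes of other heart cells, 3 of 7 endothelial, 2 of 7 fibroblast, 2 of 4 mural cell and 1 of 9 cardiomyocyte genes were lower at 78 than at 8 weeks, where 5.21% of all probes were, and 1 of 5 adipocyte genes was higher. The cardiomyocyte gene was Pln (-0.41, adjusted p = 0.0106), an inhibitor of the calcium pump, and the median of its list was 0.18. The part of such shifts in the members' differences was not tested.

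Between old females and males none of the list genes passed in limma. Lower means in females were found for 24 of 27 macrophage and monocyte genes, with a median of -0.40, and for 8 of 8 NK cell genes, with a median of -0.67. The counts were 25 and 8, with medians of -0.48 and -0.89, when both rats with an unmatched Eif2s3y level were left out, and 26 and 8, with medians of -0.28 and -0.28, without old female 4, in which the NK cell genes had a mean of -2.06 against up to 0.57 in the other old females. Lower means were not confined to these lists: 6 of 7 endothelial genes (median -0.11), 5 of 6 blood cell and platelet genes (-0.40), 5 of 7 fibroblast genes (-0.11) and 7 of 10 granulocyte and mast cell genes (-0.20) were also lower in old females. The T cell list had 8 of 12 lower with a median of -0.28, but 5 of 12 with a median of 0.06 without old female 4. Of 9 cardiomyocyte genes 1 was lower in old females, with a median of 0.08, and of 4 mural cell genes 1, with a median of 0.12.

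Rats of a group also varied together. After the mean of each age and sex was subtracted, Tyrobp and Lyz2 correlated over the 30 arrays with r = 0.82, whereas Tyrobp and Mrc1 had r = -0.34 and Csf1r and Lyz2 -0.09. These are descriptions, since the points share slides and array brightness. Among 9106 probes of named genes that were well above background on all arrays, the one most like Tyrobp was Cklf, a chemokine-like factor (r = 0.96), and the one most like Lyz2 was Rgs10 (r = 0.92), a regulator of G protein signaling. Those most like the others were Nherf1 for Cd14 (r = 0.87), Ecm1 for Csf1r (r = 0.85), Abca3 for Mrc1 (r = 0.85) and Grn, the lysosomal progranulin, for Cd68 (r = 0.78), all over 30 arrays.

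**Figure D4:**
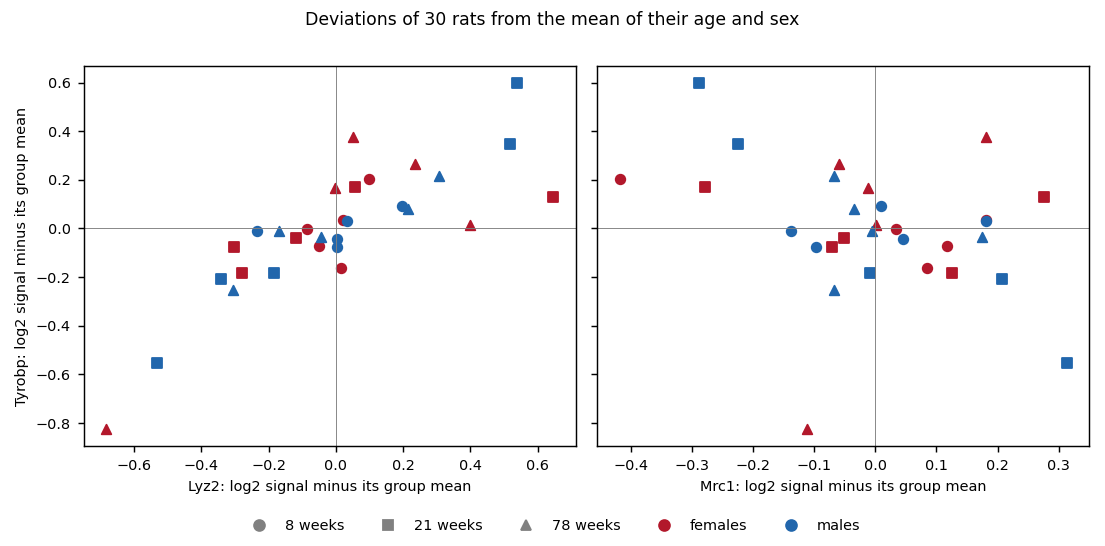
Deviation of Tyrobp (y axis) against that of Lyz2 (left) and Mrc1 (right) from the mean of the rat's age and sex, in log2 units, 1 point per rat. Tyrobp and Lyz2 spread along a rising line over the 30 rats (r = 0.82), from old female 4 at the lower left to adult males 2 and 5 at the upper right, while Tyrobp and Mrc1 show no such line (r = -0.34).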

How the data were processed

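One-colour Agilent arrays of 30 rat hearts were analysed (5 per age and sex). Per the study's methods, the authors extracted spot values with Agilent Feature Extraction, averaged probes of a gene, removed genes not expressed and scaled each array to its 75th percentile. In the deposited tables the signal is linear, and 98.0, 98.0 and 97.9% of rows were matched to the scanner files within 0.002 log2. The deposited scanner intensity (processed signal) was used here, because the tables of the 3 ages were scaled separately and 21-week male columns name no rat. log2 intensities of 41012 probes were centred on each array's 75th percentile after outlier spots (94 to 226 per array) were left out. Fits used limma 3.58.1 in R 4.3.3: sex within an age on 10 arrays, age on 30 arrays with slide as a random block (correlation -0.042), Benjamini-Hochberg over all probes. Means are given with SD and exact tests are two-sided permutations of 5 against 5. Probes were named by RefSeq accession (10719), name (5506) or synonym (3718), and 21049 stayed unnamed. The 10 members and the gene lists were chosen with earlier results of these data known. Each gene was followed by the probe well above background on the most arrays, ties going to the brighter one. From each list the genes named are up to 4 with the largest called difference between 8 and 78 weeks. Array number, 5 rats per group, limits the precision. Same-numbered females and males shared a slide. Their deviations from the group means correlated with r from 0.14 to 0.31 in all 5 pairs at 78 weeks, which were therefore also taken as pairs, and not in every pair at 8 and 21 weeks (r from -0.21 to 0.57). The fits were tested on simulated data. Alternatives covered normalization, background correction, dim probes, probe averaging, slide, scan day, replicate number and single rats.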

Additional observations from a re-analysis of the deposited data

Results flagged for a closer look

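In 2 of 60 groups of 5 rats tested, 1 rat of Mrc1 lay apart from the other 4 by a gap that was a large part of the whole range of its group, where chance alone does this in about 1 of 20 groups. Young female 2 was the lowest of its group at 1.55, against 2.01 to 2.15 in the others, with a gap of 0.754 of the range. Old male 2 was the highest of its group at 2.85, against 2.61 to 2.67, with a gap of 0.738 of the range.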

How the results depend on the processing

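Counts are of the 10 members called by limma. No sex comparison and no interaction called a member under any alternative run. For 21 minus 8 weeks (5 called) the count was 3 with quantile normalization, 0 with normexp, 2 with the 75th percentile of bright probes and 1 with scan day as a block; in females (0) it was 1 with only probes above background, and in males (4) 7 with the raw median signal and 2 with scan day as a block. For 78 minus 21 weeks (5) it was 3 with quantile normalization, the raw median signal or scan day as a block, and 1 with normexp or with only arrays of 1 scan day; in females (1) it was 0 with normexp, gene means or scan day as a block and 2 with the authors' tables, and in males (3) 1 with normexp. For 78 minus 8 weeks (4) it was 1 with normexp or the authors' tables, 0 with slide as a fixed block and 2 with scan day as a block; in females (1) it was 0 with normexp, gene means, the authors' tables or the replicate block, and in males (3) 0 with normexp. With the replicate number as a block the counts over both sexes were 5, 4 and 3. Normexp turned the sign of Cd68 (-0.0554) and Tyrobp (-0.0359) for 21 minus 8 weeks and of Cd4 between the sexes at 78 weeks (0.0284); it adds an offset of 50 to signals whose 75th percentile was 36.9 to 157.2. In the authors' tables, scaled separately by age, 78 minus 8 weeks was 0.60 for Cd163 (adjusted p = 0.0691) and 0.32 for Mrc1 (adjusted p = 0.0676). Leaving out 1 rat at a time gave 4 to 6, 3 to 5 and 3 to 4 called over both sexes, 0, 1 to 2 and 0 to 2 in females, and 4 to 6, 2 to 4 and 3 in males. The count of 3 for 78 minus 21 weeks came without adult female 2, adult male 2 or 5, old female 4 or old male 3. In females, 78 minus 21 weeks gave 2 without old female 4, and 78 minus 8 weeks gave 0 without young female 2 and 2 without old female 2. Tyrobp for 78 minus 21 weeks was lost in 5 of 20 such fits and Cd14 in 14. The authors' tables side by side, the percentile of bright probes, list counts without single old rats and the within-pair differences at 78 weeks were chosen after seeing the data. Dim probes limit Cd3e, Cd4 and Ptprc.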
